A study of Homo sapiens with 2 samples.

Results

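p53 is a transcription factor that is stabilised after DNA damage and other stress and then switches on genes that stop the cell cycle, repair DNA or start apoptosis. The expression of 9 genes grouped here as direct targets of p53 was examined after knockdown of the long noncoding RNA LINP1. The cells were HSC-1, an established cell line of cutaneous squamous cell carcinoma (cSCC). Binding of p53 near these genes was not measured. The targets were taken by name from the table of read counts per gene (CDKN1A, MDM2, GDF15, BTG2, GADD45A, GADD45B, PLK3, ZMAT3 and SESN1), and all 9 were found among its 44591 genes. Total RNA was sequenced from cells transfected with control siRNA (siNC) and from cells transfected with siRNA against LINP1 (siLINP1), with no other treatment named apart from a period without serum that both shared. Each condition had 1 library. No difference below has a replicate check, no p-value was computed, and every interval is a 95% interval that covers counting error only.

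The p53 pathway is a negative feedback loop with several arms. p53 induces CDKN1A, which encodes the cyclin-dependent kinase inhibitor p21, and MDM2, which encodes the ubiquitin ligase that marks p53 itself for degradation. BTG2, GADD45A, GADD45B and PLK3 act in growth arrest and stress signalling and are also known to respond to stress by routes other than p53, GADD45B for example through NF-kB. GDF15 is a secreted stress cytokine, ZMAT3 encodes an RNA-binding zinc finger protein and SESN1 encodes a sestrin that restrains mTORC1.

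p53 binds DNA as a tetramer on a full site of 20 bases, which consists of a pair of decamers of 10 bases. The reference genome of the build that the count table uses (GRCh37) was searched for this consensus site, with no spacer between the decamers and at most 2 mismatches, within 2500 bases on either side of the start of each gene in the table. The consensus reads the same on both strands, so each match counts for both. Of the 9 targets, 8 had at least 1 match, and 12.6% of 44582 windows of the same length around all genes had one. With at most 1 mismatch, 2 of the 9 targets and 1.10% of the windows had a match. Genes come to be listed as targets in part because such sites are found near them, so the count describes the sequence and does not test it. For 7 targets a match with the fewest mismatches for that gene is printed on the strand of the gene, with the central 4 bases of each decamer in capitals. They are the sites with fewest mismatches, those of the 4 targets farthest from 0 in the comparison of the libraries, and those of CDKN1A and MDM2.
CDKN1A, chr6:36644226-36644245, plus strand: gaaCATGtcccaaCATGttg
MDM2, chr12:69202703-69202722, plus strand: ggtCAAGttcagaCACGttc
GADD45A, chr1:68152458-68152477, plus strand: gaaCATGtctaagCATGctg
ZMAT3, chr3:178787976-178787995, minus strand: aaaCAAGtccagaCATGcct
GADD45B, chr19:2478019-2478038, plus strand: agaCTTGgttgaaCTTGgtt
BTG2, chr1:203272770-203272789, plus strand: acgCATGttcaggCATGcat
GDF15, chr19:18496118-18496137, plus strand: catCTTGcccagaCTTGtct

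The ZMAT3 site had 0 mismatches, and a match of that kind was in 0.0695% of the windows. It lies in an intron of all 4 transcripts that the GENCODE annotation of this build gives for the gene. The GADD45A site had 1 mismatch and lies in an intron of 5 of 7 transcripts, 1608 bases after the start. The printed CDKN1A site had 2 mismatches and spans the start of the gene as the table gives it, where it overlaps an exon of 1 of 8 transcripts and lies outside the other 7. Another CDKN1A match, also with 2 mismatches, has its centre 881 bases after the start, in an intron of 3 of 8 transcripts. The MDM2 site is in an intron of 6 of 36 transcripts, the GDF15 site in an intron of 3 of 5, and the GADD45B site in an exon of 2 of 7. The best matches of BTG2 and PLK3 lie before the gene, with their centres at -1884 and -1623 bases from the start. SESN1 was without a match in its window. Targets on either side of 0 in the comparison of the libraries thus carried a match of this kind.

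The depth was 18829544 counted reads for siNC and 15383081 for siLINP1. LINP1 itself went from 167 to 23 reads, and its log2 fold change was -2.65 (95% interval -3.35 to -2.02). The cell type of the label was checked with fixed markers. Of 8 keratinocyte markers, 6 were under 1 RPKM (reads scaled by gene length and by the library total) in both libraries, with 32 and 24 reads of KRT5 and 6 and 8 reads of TP63, while KRT14 had 7.89 and 3.46 RPKM and PERP, itself a p53 target, 14.3 and 21.1. The summed reads of all 8 keratinocyte markers were 1604 in siNC and 1635 in siLINP1, and without PERP 446 and 237. Those of 6 mesenchymal markers were 64305 and 43924, of which VIM gave 61097 and 41992, and 2 of the 6 (THY1 and COL1A2) were under 1 RPKM in both libraries. Markers of stomach moved with the condition, with 372 reads over 4 genes in siNC and 0 in siLINP1, while 4 blood cell markers had 41 and 18 reads together and CD3E had 0 in both. The stomach reads in siNC came mostly from PGC (194), PGA3 (95) and LIPF (82), and their source in a library of a cell line was not tested. The part of other cells in the results was not tested either, and in bulk RNA fewer cells of a type and less RNA per cell cannot be told apart.

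The 9 targets differed in both directions after LINP1 knockdown. GADD45B, BTG2 and GADD45A were more than 1.5-fold higher in siLINP1, PLK3 was just short of that, and GDF15 and CDKN1A were lower. MDM2, SESN1 and ZMAT3 stood at 0.903, 1.04 and 1.13 of their siNC levels. The counts had first been scaled with median-of-ratios size factors, and a log2 fold change above 0 means more in siLINP1. A difference of more than 1.5-fold upward was found for 3 of the 9 targets and for 14.4% of the 19840 genes with at least 10 reads. The same size of difference downward was found for 1 target and for 13.0% of these genes. The whole interval lay above a 1.5-fold rise for 3 targets and 3.98% of genes, and beyond a 1.5-fold fall for 0 targets and 2.06% of genes. Of the 9 targets, 8 had at least 1000 reads summed over both libraries, the exception being SESN1 with 722. Among the 7071 genes with at least 1000 reads, the shares past 1.5-fold were smaller, and 5.47% were more than 1.5-fold higher and 3.56% more than 1.5-fold lower. An interval also clears 0 more readily the more reads a gene has. Unless another minimum is named, the shares given further on are over all genes from 10 reads up and are not matched in depth. This holds for intervals above or below 0 and for differences past 1.5-fold. The median log2 fold change of the 9 targets was 0.17, against -0.023 over all genes kept, and the targets lay between -0.59 and 0.85.

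**Figure D1:**
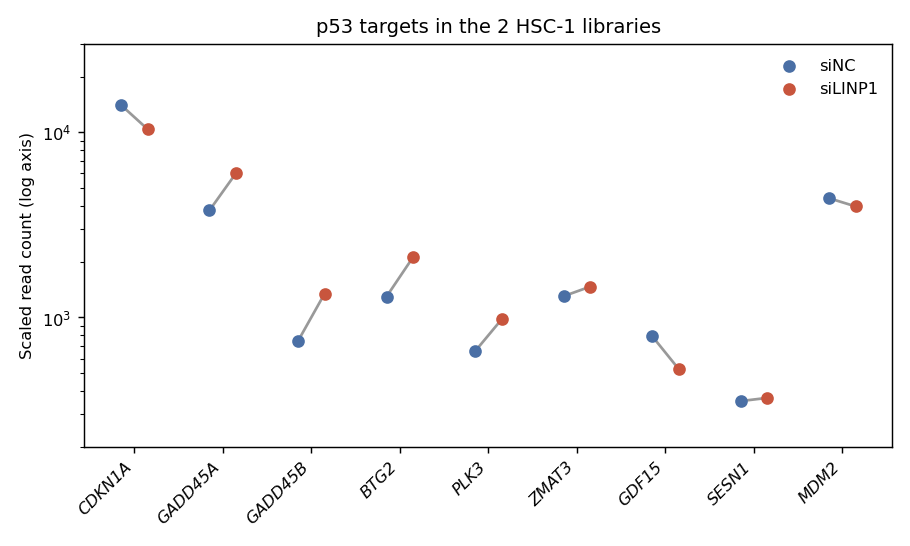
Scaled read counts (log axis) of the 9 p53 targets in the siNC library (blue) and the siLINP1 library (red); each point is 1 library, so there is no error bar. GADD45A, GADD45B, BTG2 and PLK3 slope upward, and CDKN1A and GDF15 slope downward.

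CDKN1A, on chromosome 6 from 36644237 to 36655116, was the target with most reads. The siNC library gave 15108 reads of it and the siLINP1 library 9682, which is 14050 and 10411 after scaling. The log2 fold change was -0.43 (95% interval -0.47 to -0.40), or 0.741 of the siNC level. Its interval lay below 0, as did that of 25.6% of all genes kept. CDKN1A made up 51.3% of the reads of the 9 targets in siNC and 38.3% in siLINP1. The other 8 targets together had 761.9 CPM (counts scaled to the library total) in siNC and 1016 CPM in siLINP1.

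MDM2, on chromosome 12 from 69201952 to 69239324, had 4736 and 3699 reads in siNC and siLINP1. The log2 fold change was -0.15 (95% interval -0.21 to -0.085). The size of this difference depended on the scaling, and with the total count it was -0.065 (95% interval -0.13 to -0.0025). A row of the table on the opposite strand shares 1950 bases with MDM2 and had 394 and 302 reads. Whether the counting used strand is not given in the sources used here, and reads of the pair could then not be told apart.

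GADD45B, BTG2, GADD45A and PLK3 had the 4 highest log2 fold changes of the 9 targets. GADD45A, which encodes a small acidic protein that binds PCNA and p21 and activates stress kinases, went from 4075 reads with siNC to 5601 with siLINP1. The difference was 0.67 on the log2 scale (95% interval 0.61 to 0.73). GADD45B, a paralog that acts in the same kinase pathway, had 802 and 1250 reads and the largest log2 fold change of the 9 targets, 0.85 (95% interval 0.72 to 0.98). The intervals of both lay above 0, as did that of 23.0% of all genes kept.

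BTG2, an antiproliferative cofactor of mRNA deadenylation, had 1394 and 1970 reads. Its log2 fold change was 0.71 (95% interval 0.61 to 0.81), or 1.63-fold. PLK3, a polo-like kinase of the stress response, went from 706 to 908 reads, and its log2 fold change was 0.57 (95% interval 0.43 to 0.72). At 1.49-fold PLK3 was just inside the 1.5-fold line, and it was past that line under the other 3 scalings, with 1.51-fold for TMM and 1.57-fold for the total count. The 5 targets with an interval above 0 were these 4 genes and ZMAT3.

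GDF15 was lower, with 853 reads after siNC and 490 after siLINP1. The log2 fold change of -0.59 (95% interval -0.75 to -0.43) was the lowest of the 9 targets. At 0.664 of the siNC level it was just beyond the 1.5-fold line, and it was inside that line under the other 3 scalings, with 0.675 for TMM and 0.703 for the total count. The counts of targets past the line are therefore 3 higher and 1 lower with the scaling used, and 4 and 0 with each of the others.

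ZMAT3 had 1401 and 1364 reads, and its log2 fold change was 0.17 (95% interval 0.062 to 0.28). SESN1 had 380 and 342 reads, and its log2 fold change of 0.058 had an interval that held 0 (95% interval -0.16 to 0.27). A difference of SESN1 was not detectable at this depth. Its interval reached up to 0.27 on the log2 scale with the scaling used and up to 0.35 with the total count. Both bounds cover counting error only. ZMAT3 was also the gene with the best consensus site near its start, and whether a site bore on the size of a difference was not tested.

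**Figure D2:**
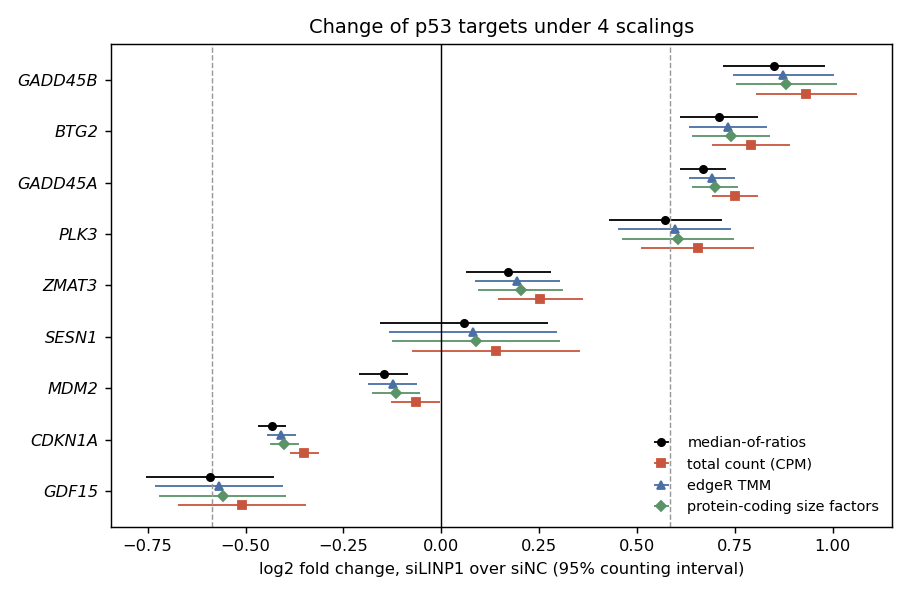
Log2 fold change of siLINP1 over siNC for the 9 p53 targets under 4 scalings of the libraries (symbols); bars are 95% counting intervals and dashed lines mark 1.5-fold. The direction of each gene is the same under the 4 scalings, PLK3 and GDF15 lie on the 1.5-fold lines, and the intervals of SESN1 hold 0.

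The order of the levels also differed between the libraries. Per length, CDKN1A was highest in siNC with 304 RPKM, followed by GADD45A with 157. In siLINP1 GADD45A was highest with 264 RPKM and CDKN1A followed with 239, and the counting intervals of the pair did not overlap in either library. GADD45A therefore stood at 0.515 of the CDKN1A level in siNC and at 1.11 of it in siLINP1. MDM2, GDF15 and GADD45B had 33.2, 32.4 and 31.0 RPKM in siNC, and the intervals of neighbours in that order overlapped. In siLINP1 these 3 genes lay apart, with GADD45B at 59.1, MDM2 at 31.8 and GDF15 at 22.8 RPKM. BTG2 went from 27.3 to 47.2 RPKM and PLK3 from 15.02 to 23.64. PLK3 and GDF15 could not be ordered in siLINP1 beyond counting error. ZMAT3 (8.16 and 9.73 RPKM) and SESN1 (5.56 and 6.12 RPKM) were lowest in both libraries.

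The difference between the fold changes of 2 genes in the same libraries does not depend on the scaling. It was computed for 12 pairs of genes chosen after their values had been seen. GADD45A exceeded CDKN1A by 1.10 on the log2 scale (95% interval 1.03 to 1.17) and BTG2 exceeded it by 1.14 (95% interval 1.03 to 1.25). MDM2 exceeded CDKN1A by 0.29 (95% interval 0.21 to 0.36), so these classic targets were not lower by the same amount. GDF15 minus CDKN1A was -0.16, with an interval that held 0 (95% interval -0.33 to 0.0085). GADD45B exceeded GADD45A by 0.18 (95% interval 0.039 to 0.32). For BTG2 minus GADD45A and PLK3 minus GADD45A the intervals held 0, from -0.076 to 0.16 and from -0.25 to 0.060.

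**Figure D3:**
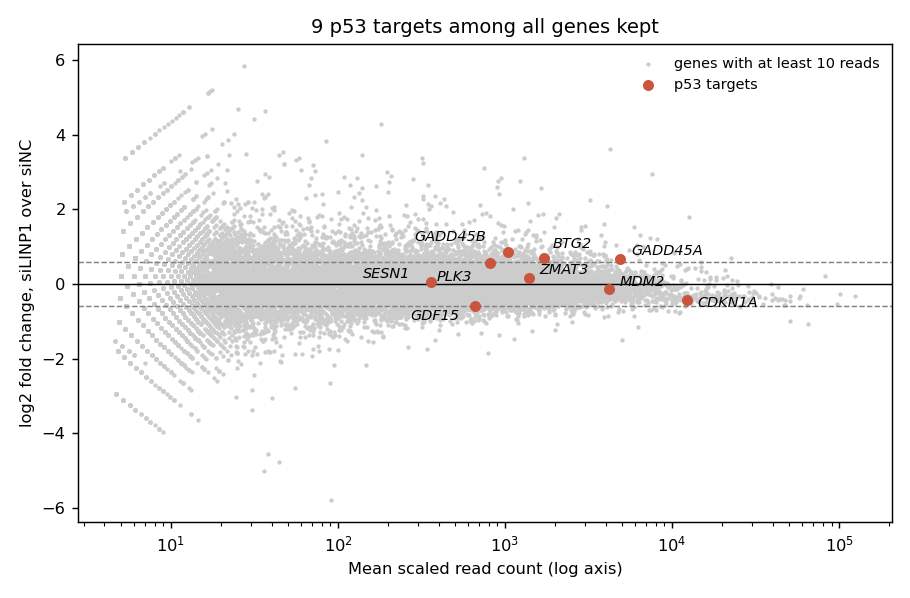
Log2 fold change of siLINP1 over siNC against the mean scaled read count (log axis) for the genes with at least 10 reads (grey), with the 9 p53 targets in red and dashed lines at 1.5-fold. The spread of the grey points narrows to the right, where CDKN1A, GADD45A and MDM2 lie, and GADD45B, BTG2 and GADD45A are above the upper dashed line.

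A list of 43 other p53 targets gave the wider picture, and 42 of them had at least 10 reads (SPATA18 had 1 read in siNC and 0 in siLINP1). These 42 genes were split evenly, with 21 higher and 21 lower in siLINP1 and a median log2 fold change of -0.023, the same as that of all genes kept. The interval lay above 0 for 17 and below 0 for 16, against 23.0% and 25.6% of all genes kept. By more than 1.5-fold, 5 were higher and 3 were lower, against 14.4% and 13.0% of all genes kept. Among genes with at least 1000 reads these shares were 5.47% and 3.56%. The 42 genes differ in depth, so neither pair of shares is matched to them. Scaling by the total count moved the counts of 5 and 3 to 8 and 1 and the median to 0.059.

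Of the 12 targets that act in apoptosis, 4 were more than 1.5-fold higher and 0 lower, and the whole interval lay above a 1.5-fold rise for 3. Over all genes kept these shares were 14.4%, 13.0% and 3.98%. The interval lay above 0 for 7 of the 12 and below 0 for 4. PMAIP1, which encodes the BH3-only protein NOXA, had the largest log2 fold change, 1.53 (95% interval 1.45 to 1.62). The death receptor gene FAS had 430 and 689 reads and a log2 fold change of 0.89 (95% interval 0.71 to 1.07). AEN, which encodes an apoptosis-enhancing nuclease, had 3034 and 4536 reads (0.79, 95% interval 0.72 to 0.86). TNFRSF10B, which encodes the death receptor DR5, had 3623 and 4903 reads (0.65, 95% interval 0.58 to 0.71). BAX, the effector of mitochondrial pore formation, had 3403 and 2367 reads (-0.31, 95% interval -0.39 to -0.24), and PHLDA3, an inhibitor of AKT, had 3883 and 2415 reads (-0.48, 95% interval -0.55 to -0.40). BBC3, which encodes PUMA, had 772 and 746 reads (0.16, 95% interval 0.013 to 0.31). Apart from PMAIP1, FAS and AEN, the genes of this paragraph were chosen after their values had been seen.

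Among 7 targets of cell cycle control and feedback, PPM1D, which encodes the phosphatase WIP1 that switches off p53 signalling, had 650 and 839 reads, a difference of 0.58 on the log2 scale (95% interval 0.43 to 0.73). It was inside the 1.5-fold line here and past it under the other 3 scalings. PPM1D exceeded MDM2, the other feedback gene, by 0.72 (95% interval 0.56 to 0.89). CCNG1, which encodes cyclin G1, had 2827 and 2288 reads (-0.096, 95% interval -0.18 to -0.016). SFN, which encodes the checkpoint protein 14-3-3 sigma, was more than 1.5-fold lower with 264 and 138 reads, and 3 of the 7 genes had an interval above 0 and 3 below 0, next to 23.0% and 25.6% of all genes kept. The 5 genes of DNA repair lay between -0.25 and 0.34, with RRM2B, a subunit of ribonucleotide reductase, at the lower and ASCC3, a DNA helicase, at the upper end. Of the 8 genes of metabolism and stress with enough reads, 2 were more than 1.5-fold lower, among them FDXR (1113 and 617 reads), and ACER2 (100 and 138 reads) was more than 1.5-fold higher, while 13.0% and 14.4% of all genes kept were. Scaled by the total count, 0 of the 8 were lower and 2 higher by that much. The remaining 10 genes, which include the receptor gene EPHA2 with 11394 and 13033 reads, all lay within 1.5-fold, though 1 of them was past it when scaled by the total count or with size factors from protein-coding genes. SFN, RRM2B, ASCC3, FDXR, ACER2 and EPHA2 were chosen after their values had been seen.

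**Figure D4:**
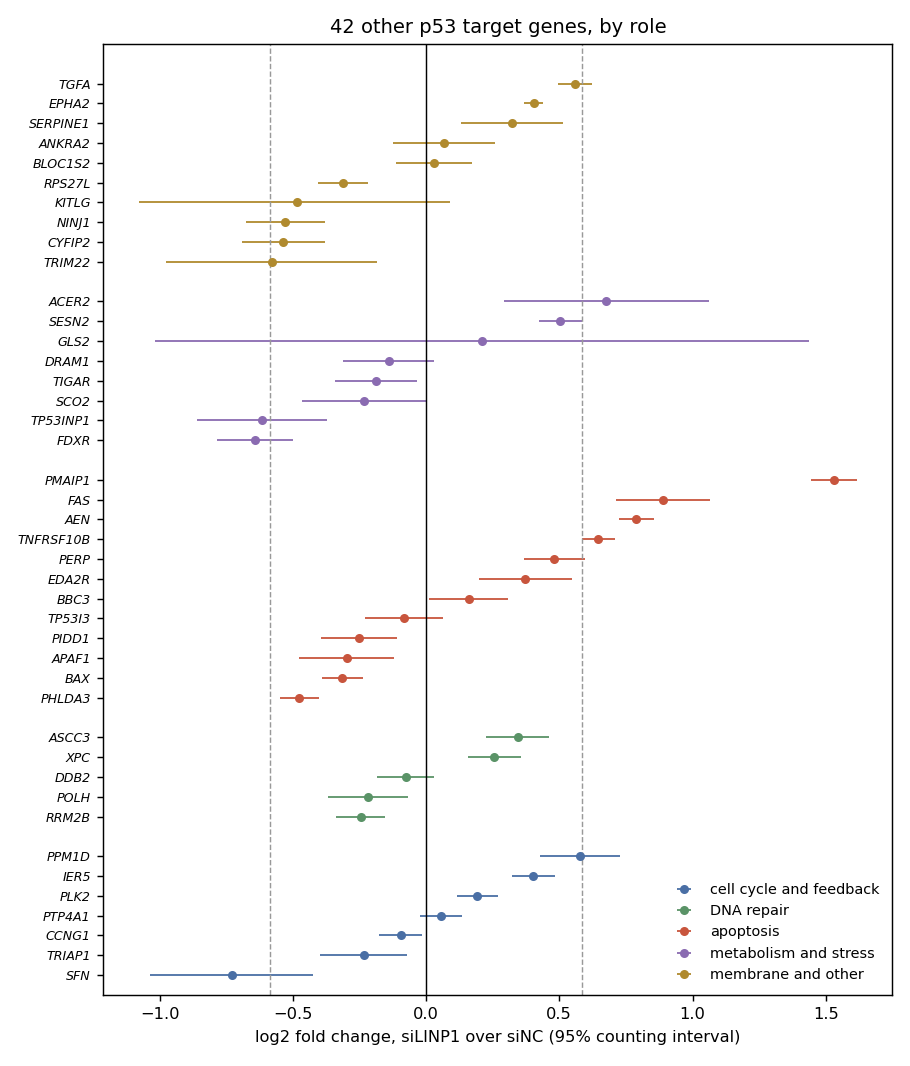
Log2 fold change of siLINP1 over siNC for 42 other p53 targets, coloured by role; bars are 95% counting intervals and dashed lines mark 1.5-fold. Each role holds genes on both sides of 0, and PMAIP1 lies farthest from 0 at 1.53.

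Genes that act upstream of p53 were examined with a list of 24 regulators. Their median log2 fold change was 0.17, with 16 higher and 8 lower (20 and 4 when scaled by the total count), and with an interval above 0 for 13 and below 0 for 4 (23.0% and 25.6% of all genes kept). The whole interval lay above a 1.5-fold rise for 3 of them and beyond a 1.5-fold fall for 0 (3.98% and 2.06% of all genes kept). HIPK2, a kinase that phosphorylates p53, went from 2782 to 4837 reads (1.01, 95% interval 0.94 to 1.08). CDKN2A, whose locus encodes both p16 and the MDM2 inhibitor ARF, which gene counts do not separate, had 144 and 238 reads (0.93, 95% interval 0.63 to 1.24). RCHY1, a ubiquitin ligase of p53, had 220 and 345 reads (0.86, 95% interval 0.61 to 1.11). MDM4, the partner of MDM2, had 2234 and 2103 reads (0.12, 95% interval 0.036 to 0.21).

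p53 represses cell cycle genes indirectly, through p21 and the DREAM complex. Of 29 such genes, 25 were lower and 4 higher in siLINP1, with a median log2 fold change of -0.25, while 10350 of all 19840 genes kept were lower. The interval lay below 0 for 19 and above 0 for 1, against 25.6% and 23.0% of all genes kept. More than 1.5-fold differences were found for 2 of them, CDK1 (837 and 442 reads) and TTK (399 and 225 reads), both lower and both named after their values had been seen, next to 13.0% of all genes kept. Scaled by the total count, TTK was within 1.5-fold and CDK1 remained beyond it. The RNA of CDKN1A was also lower in siLINP1. Whether p21 or DREAM had a part in the levels of these genes was not tested. All 16 genes of a list of immediate early and NF-kB genes were higher, 14 of them by more than 1.5-fold (14.4% of all genes kept), with a median of 1.13. This list, like the others, was chosen with earlier results of these data known, so its direction is a description and tests nothing. The intervals farthest above 0 were those of EGR1 (2.94, 95% interval 2.87 to 3.01) and ATF3 (2.25, 95% interval 2.16 to 2.34), and 0 of the 9 targets reached the median of that list.

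**Figure D5:**
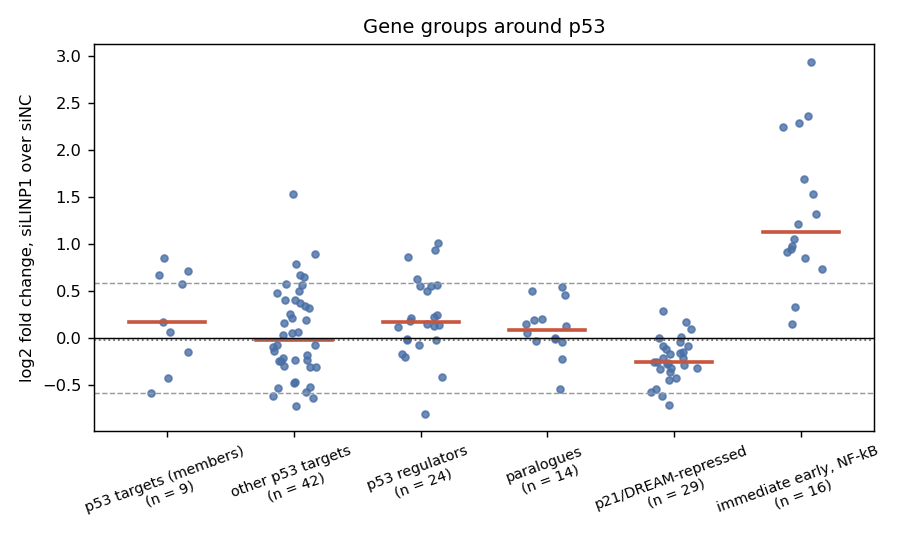
Log2 fold change of siLINP1 over siNC for each gene (points) and the median (red bars) of 6 gene groups around p53; dashed lines mark 1.5-fold and the dotted line the median of all genes kept. The p21/DREAM-repressed genes lie mostly below 0, the immediate early and NF-kB genes all above 0, and both groups of p53 targets on both sides.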

How the data were processed

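The authors sequenced 1 library of total RNA for each condition (siNC and siLINP1) in HSC-1 cells on an Illumina HiSeq instrument. Per the study's methods, reads were aligned to GRCh37/hg19 with Tophat2 and counted per gene with HTSeq. The submitters' processing notes also name HISAT2, HISAT and Bowtie2, with no role. Versions, annotation, counting mode and strand setting are not given in the sources used here. The authors deposited raw read counts per gene, RPKM values and the gene lengths behind them. A further 12 columns of the table with values of single samples were left aside.

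Scaling used median-of-ratios size factors (1.075 for siNC, 0.930 for siLINP1), and genes with fewer than 10 reads over both libraries were left out. Log2 fold changes carry no pseudocount. Intervals are 95% Clopper-Pearson intervals of the siLINP1 share of a gene's reads, converted to a fold, and exact Poisson intervals for RPKM. A library at 0 was set to a floor of 3 reads. Differences between genes are conditional odds ratios. edgeR was used for TMM factors only, since 1 library per condition allows no test. The calculations were tested on simulated data that held counting error only, so spread between replicates was not covered.

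The 9 targets and all lists were chosen with earlier results of these data known. The genes named were the targets, LINP1, 9 relatives and feedback genes, and at most 8 genes a list whose whole interval lay beyond 1.5-fold. Others are marked as chosen after their values were seen. The values of 1 further gene are not reported here. COP1 was matched as RFWD2. The alternatives were other scalings (total count, TMM, size factors from protein-coding genes), pseudocounts of 1 and 5, minimums of 1, 100 and 1000 reads, a fold of 2, and 1 mismatch in the motif search. The tools were R 4.3.3 with edgeR 4.0.16, and Python 3.11.15 with scipy 1.17.1, pandas 2.3.3, matplotlib 3.10.9 and numpy 2.4.6.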

Additional observations from a re-analysis of the deposited data

How the results depend on the processing

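The limits come from the design. With 1 library per condition, culture, library and siRNA cannot be told apart, and the intervals cover counting error only. No paired analysis was possible because each condition had 1 library, and for the same reason none could be left out. Each of the 9 targets kept its direction under 3 other scalings and pseudocounts of 1 and 5. Scaling by the total count adds 0.082 to every log2 fold change and moved CDKN1A to -0.35, MDM2 to -0.065 and GADD45A to 0.75, outside their intervals. It also turned the split of all genes with an interval off 0 from 4557 higher and 5081 lower to 5643 and 3914. The median of each of 6 gene groups stayed inside its own interval under the 3 other scalings, minimums of 1 and 100 reads and both pseudocounts. Over all genes, 2863 were more than 1.5-fold higher and 2573 lower with at least 10 reads, 1163 and 903 with at least 100, and 387 and 252 with at least 1000, where fewer genes were left. Past 2-fold, 1338 were higher and 1051 lower. With 1 mismatch in place of 2, the targets with a p53 site went from 8 to 2.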

Other observations

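Of 17 paralogs of the 9 targets, 14 had at least 10 reads. None of these 14 differed by more than 1.5-fold, while 14.4% of all genes kept were higher and 13.0% lower by that much. Among genes with at least 1000 reads these shares were 5.47% and 3.56%, so a count of 0 among 14 does not set the paralogs apart. The median log2 fold change of the 14 paralogs was 0.087. Scaling by the total count put 2 of them past that line. BTG1, the paralog of BTG2, went from 2662 to 3354 reads (0.54, 95% interval 0.47 to 0.62), and BTG2 exceeded it by 0.17 (95% interval 0.041 to 0.29). SESN2, a sestrin gene that is also known as a target of ATF4, had 2291 and 2809 reads (0.50, 95% interval 0.42 to 0.58) and exceeded SESN1 by 0.45 (95% interval 0.22 to 0.68). SESN3 had 184 and 183 reads. PLK2 had 2711 and 2680 reads (0.19, 95% interval 0.12 to 0.27), and PLK3 exceeded it by 0.38 (95% interval 0.22 to 0.54). CDKN1B, which encodes the cyclin-dependent kinase inhibitor p27, had 1442 and 1377 reads (0.14, 95% interval 0.035 to 0.25), while CDKN1A was lower. GADD45G was close to unread, with 1 and 3 reads, so only GADD45A and GADD45B of this family could be compared.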
